A study of Rattus norvegicus with 18 samples.

Results

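The response to training was examined in the hippocampus of rats on the alcohol diet, by comparing 4 arrays from trained rats with 4 arrays from naive rats. These are all arrays whose labels give the alcohol diet, 8 of 18 in the series, and none was chosen by a measured value. The labels describe the training only by the abbreviation CFC, and the title of the series places the work in fetal alcohol exposure and learning disability. The groups used are therefore alcohol diet with training (alcohol trained), alcohol diet without it (alcohol naive), and, for comparison, isocaloric diet with training (4 arrays) and without (2), and control diet with training (2) and without (2). The diet is the only exposure the labels name, and both alcohol groups share it, so the comparison is about training and says nothing by itself about alcohol. Dose and timing of the diet, strain, sex, age, litter and the interval from training to tissue collection are not given in the sources used here. Nothing in the labels ties a replicate to an animal of its own. The p-values therefore reflect only how far these samples scatter, and some of that scatter may be technical.

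The hippocampus encodes context and place, and forming a lasting memory of either requires transcription in its neurons. Activity opens NMDA-type glutamate receptors, and the calcium that enters drives calmodulin-dependent kinases and the cAMP and MAP kinase pathways toward the transcription factor CREB. Within minutes to hours this induces immediate early genes, which return to baseline soon after. They include transcription factors such as Fos and Egr1 and effectors at the synapse such as Arc and Homer1. What a single time point shows of this program depends on when the tissue was taken.

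Total signal per alcohol-diet array lay between 2919033 and 3134075 intensity units, and array pairs correlated at 0.966 to 0.982 within a group and 0.966 to 0.979 between the groups. Markers of the hippocampal subfields were mostly bright enough to test, with 6 of 6 on the array for CA1 pyramidal cells, 4 of 5 for CA3 and 5 of 8 for dentate granule cells. Of 13 striatum and cortex markers on the array 7 were also bright enough, among them Penk, Pde10a and Ppp1r1b, while the striatal receptors Drd1 and Adora2a were among the 6 that were not. Alcohol trained replicate 4 stood apart from the other 7 arrays. Its score on the first principal component, which held 24.7% of the variance of these 8 arrays, was 23.5, against -6.4 to 0.5 for the others. Ttr (transthyretin, made by the choroid plexus) had log2 levels of 7.83, 6.56, 9.57 and 12.84 in trained replicates 1 to 4 and 7.53, 12.67, 6.28 and 6.46 in naive replicates 1 to 4. Ttr was thus highest in trained replicate 4 and naive replicate 2, 1 array of each group, and intermediate in trained replicate 3.

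No gene passed the test for a training difference in alcohol-diet rats. Of 9520 probe sets bright enough to test, 0 were called at an adjusted p under 0.05 (0%, limma with Benjamini-Hochberg adjustment), and the smallest adjusted p was 0.14. At an unadjusted p under 0.05 there were 818 (8.59%), of which 365 were higher in trained arrays (3.83%) and 453 lower (4.76%), and 34 lay under 0.001. In 244 probe sets (2.56%) all 4 trained values lay above all 4 naive values, and in 264 (2.77%) all lay below. Counted over all 15866 non-control probe sets, including those too dim to test, the numbers were 366 above and 361 below. These percentages are the background against which every gene group below is read.

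The differences were small. The median size of a difference was 0.09 on the log2 scale, 64 probe sets differed by more than 0.5, and 1 exceeded 2-fold. The median standard error was 0.117 and the median 95% interval reached 0.25 to either side. For 7890 probe sets (82.9%) the whole 95% interval lay within 0.5 of 0, and for 9443 (99.2%) within 1. A 2-fold difference with training therefore lay outside the interval of nearly every tested transcript. Differences within 0.25 were mostly not detectable with 4 arrays a group. These intervals are unadjusted, and none of the 64 differences beyond 0.5 passed after adjustment. The median over all tested probe sets was -0.01.

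**Figure D1:**
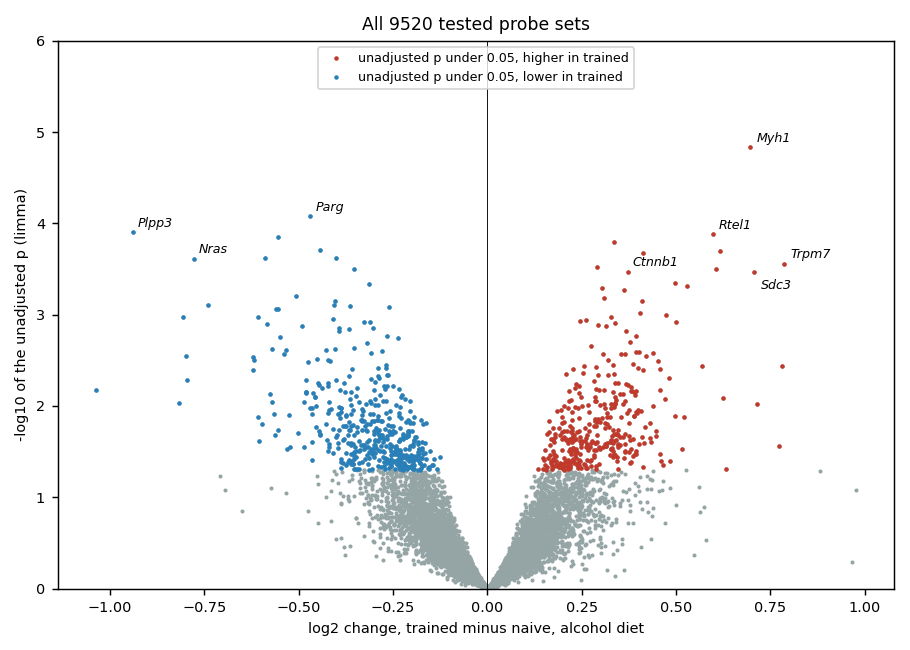
Each point is 1 of the 9520 tested probe sets. The x axis is the log2 change between trained and naive alcohol-diet arrays, and the y axis the -log10 of the unadjusted limma p-value. Red and blue mark the 365 higher and 453 lower probe sets with an unadjusted p under 0.05; Myh1 has the smallest p, 1.47e-05, and no probe set passed after adjustment.

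The transcripts with the smallest p-values are given next, as leading values that did not pass. Levels of single arrays, where printed, are log2(intensity + 6.06). The probe set with the strongest evidence is annotated as Myh1, a myosin heavy chain best known from skeletal muscle. Its levels were 9.56, 9.83, 9.51 and 9.52 in trained and 8.90, 9.08, 8.78 and 8.87 in naive arrays, so the groups did not overlap. The difference was 0.70 ± 0.12 (SE), or 1.62-fold (adjusted p = 0.14, limma). Of the 4 further probe sets annotated to Myh1, one differed by 0.50 (adjusted p = 0.219), one by 0.35 (adjusted p = 0.48) and the others by 0.14 and 0.05. All were in the same direction, but by unequal amounts. When the spread was taken from the 2 alcohol groups alone, Myh1 passed with an adjusted p of 0.0411, the single call in that fit.

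Other transcripts higher in trained arrays came from several unrelated functions. Trpm7, an ion channel for magnesium and calcium that carries its own kinase, read 6.55, 6.36, 6.29 and 6.91 in trained and 5.57, 6.03, 5.99 and 5.37 in naive arrays. The groups were separate, and the difference of 0.79 ± 0.18 (1.72-fold, adjusted p = 0.183) was the largest of the leading higher genes. Sdc3, a heparan sulfate proteoglycan of axons, had values of 7.09, 6.86, 6.79 and 7.19 in trained and 6.72, 5.98, 6.29 and 6.11 in naive arrays, a difference of 0.71 ± 0.16 (adjusted p = 0.183). Its trained arrays were again all above the naive ones, with naive replicate 1 closest, and its second probe set differed by 0.31. Rtel1, a DNA helicase of telomere maintenance, had levels of 6.73, 6.74, 6.48 and 6.61 against 6.08, 6.12, 6.10 and 5.86, a difference of 0.60 ± 0.12. Mtg2, a GTPase of mitochondrial ribosome assembly, had 7.43, 7.21, 7.63 and 7.35 against 6.59, 6.79, 6.98 and 6.78, a difference of 0.62 ± 0.13. Meis3, a homeobox transcription factor, had 6.97, 7.04, 6.95 and 7.17 against 6.09, 6.63, 6.60 and 6.39, a difference of 0.61 ± 0.14. In all 3 of these the trained and naive values were fully apart, and each had an adjusted p of 0.183.

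Ctnnb1, which encodes beta-catenin, the partner of cadherins at synapses and the effector of Wnt signalling, was the brightest of the leading genes. It had levels of 10.40, 10.54, 10.41 and 10.58 in trained and 10.01, 10.24, 10.01 and 10.16 in naive arrays, a difference of 0.37 ± 0.09 (adjusted p = 0.183). A second Ctnnb1 probe set was higher by 0.19 (adjusted p = 0.564), and another, dimmer one differed by 0.00. The remaining leading higher genes were Tbkbp1, an adaptor of the kinase TBK1 (0.33 ± 0.07), Nipsnap2, a mitochondrial protein (0.41 ± 0.09), and Sord, sorbitol dehydrogenase (0.53 ± 0.13). For Sord a second probe set differed the other way, by -0.15 (adjusted p = 0.804).

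Among transcripts without overlap, the largest positive differences also included 2 scaffold genes and a chaperone gene. Dlgap3, a scaffold of the postsynaptic density, had 7.70, 7.74, 7.58 and 7.66 in trained and 7.44, 7.06, 6.85 and 7.32 in naive arrays, a difference of 0.50 ± 0.13 (adjusted p = 0.258). Its second probe set was higher by 0.34 (adjusted p = 0.456), so both pointed the same way. Nherf2, a PDZ scaffold at the membrane, differed by 0.47 ± 0.16, and its second probe set by 0.05. Bag6, which hands tail-anchored proteins to the membrane insertion machinery, had 7.03, 7.14, 7.25 and 7.24 against 6.92, 5.61, 6.95 and 6.93. Its difference of 0.56 ± 0.30 came largely from naive replicate 2. Without that array it was 0.23, and the second Bag6 probe set differed by -0.08.

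**Figure D2:**
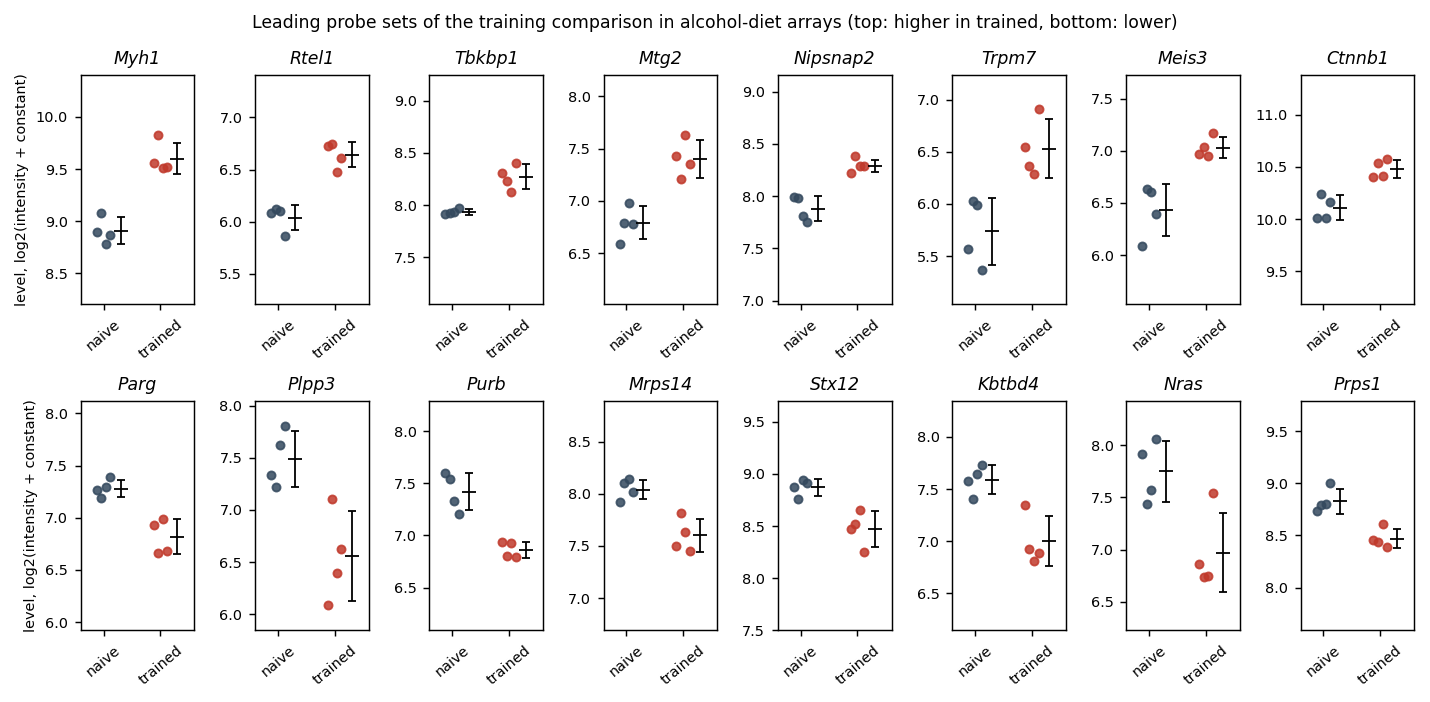
Levels of 16 leading probe sets on the log2(intensity + 6.06) scale, 1 point per array, with 4 naive (dark) and 4 trained (red) alcohol-diet arrays in each panel. The bar beside each group is its mean ± SD, and every panel spans the same height of the y axis. In the top row all trained arrays lie above all naive arrays, with Myh1 first by p-value; in the bottom row they lie below, except for Nras, where trained replicate 4 (7.54) reaches into the naive range.

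On the lower side, the largest difference among the leading genes was that of Plpp3, a phosphatase of bioactive lipids such as lysophosphatidic acid. Its levels were 6.09, 7.10, 6.40 and 6.63 in trained and 7.33, 7.22, 7.62 and 7.80 in naive arrays, a difference of -0.94 ± 0.19 (1.92-fold lower, adjusted p = 0.183). The groups did not overlap, but trained replicate 2 lay just under the lowest naive array. Its 2 other, brighter probe sets were lower by -0.20 and -0.18 (adjusted p = 0.603 and 0.669). Parg, the enzyme that removes poly(ADP-ribose) after DNA damage signalling, had the smallest p of the lower genes. It read 6.93, 6.66, 6.99 and 6.68 against 7.27, 7.19, 7.29 and 7.39, a difference of -0.47 ± 0.09 (adjusted p = 0.183). Purb, a single-strand nucleic acid binding protein, had 6.94, 6.80, 6.93 and 6.79 against 7.60, 7.54, 7.33 and 7.21, a difference of -0.55 ± 0.12. Parg and Purb were thus each lower in all 4 trained arrays than in any naive array.

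Nras, a small GTPase at the head of the MAP kinase cascade, had 6.86, 6.74, 6.75 and 7.54 in trained and 7.92, 7.44, 7.57 and 8.06 in naive arrays. The difference was -0.78 ± 0.17 (adjusted p = 0.183). Trained replicate 4, the array apart from the rest, overlapped the naive values. Without it the difference was -0.97 and the adjusted p 0.0382, the single call in that fit. A second Nras probe set differed by only -0.08 (adjusted p = 0.859).

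The remaining leading lower genes had unlike roles. Stx12, a SNARE protein of endosomes, had 8.47, 8.52, 8.65 and 8.25 against 8.87, 8.76, 8.94 and 8.91, a difference of -0.40 ± 0.09. Cept1, which makes phosphatidylcholine and phosphatidylethanolamine, differed by -0.31 ± 0.07, and Cln8, a carrier of lysosomal enzymes out of the endoplasmic reticulum, by -0.51 ± 0.12. The other leading lower genes were Mrps14 of the mitochondrial ribosome (-0.44 ± 0.10), Kbtbd4, a substrate adaptor of a ubiquitin ligase (-0.59 ± 0.13), and Prps1, which makes the precursor of nucleotides (-0.35 ± 0.08). Adjusted p-values of these 6 genes lay between 0.183 and 0.25, and trained and naive values did not overlap in any of them. The second Prps1 probe set differed by -0.08.

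Non-overlapping transcripts with the largest negative differences added Ptbp3, a splicing regulator (-0.61 ± 0.16), Actr6, an actin-related protein of chromatin remodelling (-0.58 ± 0.15), and Eif1a, a translation initiation factor (-0.56 ± 0.14). Pcsk5, a protease that matures secreted precursors, differed by -0.57 ± 0.16, and Ghrhr, the receptor of growth hormone-releasing hormone, by -0.62 ± 0.18, with -0.39 (adjusted p = 0.564) in a second probe set. Cnga2, a cyclic nucleotide-gated channel best known from olfactory neurons, had 6.10, 6.10, 5.82 and 5.04 against 6.68, 6.41, 6.26 and 6.14. Its difference was -0.61 ± 0.22 and, without trained replicate 4, -0.37. Asrgl1, an asparaginase, read 8.27, 7.82, 7.98 and 8.44 against 8.64, 9.13, 8.46 and 8.51, a difference of -0.56 ± 0.14 (adjusted p = 0.252). It passed once the 3' to 5' signal ratio of Gapdh, a measure of RNA integrity, was added to the fit (-0.79, adjusted p = 0.0108), but its 2 other probe sets differed by 0.03 and 0.05.

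Immediate early genes, the transcripts that neuronal activity induces first, gave no called member in trained alcohol-diet rats, and 4 of the 13 tested transcription factors and 8 of the 19 tested effectors lay above 0, where 47.7% of all tested probe sets did. Of 23 transcription factors of this kind on the array, 13 were bright enough to test. Counted by the brightest probe set of each gene, none of the 13 was higher at an unadjusted p under 0.05 and 2 were lower. The median was -0.13, against -0.01 over all tested probe sets. For Jun, a partner of Fos, the brightest probe set differed by -0.03. A dimmer Jun probe set was higher by 0.37 at an unadjusted p under 0.05, but did not pass after adjustment. Another differed by 0.02. Egr1, a zinc-finger factor widely used as a marker of recent activity, read 9.05, 8.82, 9.18 and 9.0 in trained and 9.08, 9.01, 9.13 and 9.38 in naive arrays. The groups overlapped, and the difference was -0.13 with a 95% interval of -0.42 to 0.15. Leaving out 1 array at a time gave -0.19 to -0.06. Nr4a1, a nuclear receptor, had 7.16, 7.19, 7.44 and 7.11 against 7.36, 7.49, 7.40 and 7.44 (-0.19, interval -0.43 to 0.04). Junb differed by 0.04 (-0.24 to 0.31), and by -0.02 without trained replicate 4. The 2 lower members were Klf10, with 6.35, 6.65, 7.03 and 7.27 against 7.06, 7.33, 7.34 and 7.38 (-0.45, adjusted p = 0.439), and Klf6 (-0.37, adjusted p = 0.477), both zinc-finger factors. Without trained replicate 1 Klf10 differed by -0.29, and without trained replicate 4 Klf6 by -0.25; a second, dimmer Klf6 probe set differed by -0.04.

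Fos, Fosb, Egr2 and Egr3 were among the 10 transcription factors below the level at which probe sets were tested, so only their values are given. Fos had 4.59, 4.84, 5.63 and 4.54 in trained and 3.94, 4.42, 4.71 and 5.41 in naive arrays, with one high array in each group. Fosb averaged 4.15 in trained and 4.09 in naive arrays, Egr2 5.24 and 5.39, and Egr3 5.59 and 5.90. In each of these the groups overlapped, and at such low intensities the added constant compresses any difference.

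Among effectors of the immediate early response, 19 of 27 on the array were tested, with a median of -0.02. Of these, 1 was higher and 2 lower at an unadjusted p under 0.05. Arc, a regulator of AMPA receptor endocytosis whose RNA travels to dendrites, read 7.64, 7.59, 7.99 and 7.49 in trained and 7.91, 7.67, 7.92 and 7.80 in naive arrays (-0.15, interval -0.45 to 0.16), and -0.25 to -0.09 with 1 array left out. Homer1, a postsynaptic scaffold, differed by -0.02 (-0.17 to 0.14) in its brightest probe set. One of its 3 other probe sets was lower by -0.22 (adjusted p = 0.539). Bdnf, the neurotrophin most closely tied to memory, had 6.64, 6.47, 6.89 and 7.0 against 6.99, 6.35, 6.83 and 6.71, a difference of 0.03 (-0.29 to 0.35). Its sign turned with single arrays, from -0.09 without naive replicate 2 to 0.12 without naive replicate 1. Arc and Bdnf values overlapped between the groups, and no rise of Arc above 0.16 or of Bdnf above 0.35 fell within the interval.

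The effectors with the lowest p-values were Rgs4, Sgk1 and Ptgs2. Rgs4, which shortens signalling by G proteins, had 8.0, 8.33, 7.89 and 7.97 in trained and 8.42, 8.67, 8.39 and 8.37 in naive arrays. The groups did not overlap (-0.42 ± 0.12, adjusted p = 0.368), and its second probe set was lower by -0.39 (adjusted p = 0.439). Ptgs2, the inducible cyclooxygenase, had 5.85, 5.97, 5.73 and 5.99 against 6.16, 6.04, 6.01 and 6.33, also without overlap (-0.25, adjusted p = 0.564). Sgk1, a kinase induced by glucocorticoids, had 9.31, 8.29, 8.54 and 8.45 against 8.34, 8.17, 8.28 and 8.29 (0.38, adjusted p = 0.507). Its difference owed most to trained replicate 1, the one array above 9, and was 0.16 without it. Dusp1, a phosphatase of MAP kinases, had 6.67, 6.45, 7.06 and 5.86 against 6.36, 6.91, 7.04 and 6.6 (-0.22, interval -0.64 to 0.20). Trained replicate 4 was the low array, and without it the difference was 0.00; without trained replicate 3 it was -0.40.

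**Figure D3:**
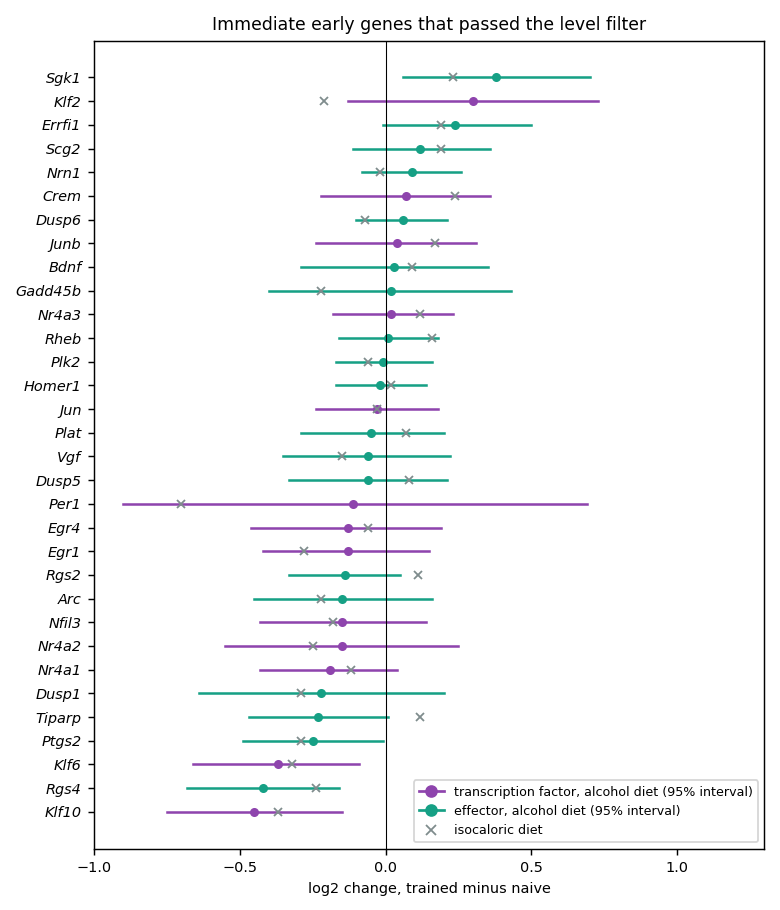
Log2 change between trained and naive arrays for the 32 immediate early genes that passed the level filter, as points with 95% intervals for the alcohol diet (purple for 13 transcription factors, green for 19 effectors) and crosses for the isocaloric diet. The intervals of all but Sgk1, Ptgs2, Klf6, Rgs4 and Klf10 include 0.

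Signalling genes between synapse and nucleus gave no called member either. Of 44 tested genes of the cAMP, MAP kinase and CREB pathways, 0 were higher and 5 lower at an unadjusted p under 0.05, with a median of -0.05, and 0 were called. Besides Nras, these were Rps6ka2, Rap1a, Adcy3 and Prkar2a; Rps6ka2 and Adcy3, like Camk2b and Dlgap1 in the next groups, are named because the count is small, after their values were seen. Prkar2a, a regulatory subunit of protein kinase A, had 7.45, 7.41, 7.31 and 7.54 in trained and 7.79, 7.64, 7.73 and 7.60 in naive arrays, a separation without overlap (-0.26 ± 0.08, adjusted p = 0.41), but its second, dimmer probe set differed by -0.02. Rap1a, a GTPase that links cAMP to MAP kinase, differed by -0.30 ± 0.10 (adjusted p = 0.439). Creb1 itself read 7.08, 6.74, 6.94 and 6.58 against 6.89, 7.06, 6.73 and 6.76, a difference of -0.02 (-0.28 to 0.24) that ran from -0.11 to 0.06 with 1 array left out.

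Of 38 tested calcium and calmodulin-dependent kinases, phosphatases and their regulators, 4 were higher and 0 lower at an unadjusted p under 0.05, while the median was -0.02. The higher ones were Camk2b, Ppp1r1a and 2 subunits of calcineurin, the calcium-dependent phosphatase that weakens synapses. Ppp3ca, the catalytic subunit, had 11.84, 12.02, 11.76 and 11.88 in trained and 11.82, 11.62, 11.49 and 11.27 in naive arrays (0.32 ± 0.09, adjusted p = 0.368). Ppp3r1, the regulatory subunit, had 11.13, 11.13, 11.05 and 11.03 against 10.93, 10.90, 10.96 and 10.80 (0.19 ± 0.07, adjusted p = 0.469), with no overlap. A second Ppp3ca probe set was higher by 0.21 (adjusted p = 0.507), and a second one for Ppp3r1 by 0.04. Ppp1r1a, inhibitor of protein phosphatase 1, differed by 0.32 ± 0.08 (adjusted p = 0.258). Camk2a, the abundant kinase of long-term potentiation, read 7.96, 7.68, 8.04 and 7.78 against 7.73, 8.82, 7.59 and 7.50. Naive replicate 2 was high, and the difference was -0.04 with an interval of -0.50 to 0.41. Without that array its direction turned, to 0.26, and the second Camk2a probe set differed by 0.30.

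At the synapse, 5 of 37 tested glutamate receptor and postsynaptic density genes were higher and 0 lower at an unadjusted p under 0.05, with a median of 0.04. Scaffolds made up most of these. After Dlgap3 came Shank3, the master scaffold of the postsynaptic density, with 9.47, 9.73, 9.83 and 9.31 in trained and 9.20, 9.05, 9.28 and 9.12 in naive arrays (0.42 ± 0.12, adjusted p = 0.35). Grik5, a kainate receptor subunit, differed by 0.35 ± 0.13 (adjusted p = 0.505), Cacng2, the AMPA receptor auxiliary protein stargazin, by 0.25 ± 0.10 (adjusted p = 0.507), and the fifth was Dlgap1. The receptor subunits most studied in learning differed little. Grin1, the obligatory NMDA receptor subunit, had 9.50, 9.37, 9.30 and 9.24 against 9.47, 9.38, 9.28 and 9.27, a difference of 0.00 (-0.27 to 0.27). Grin2b differed by 0.21 (-0.24 to 0.65; 0.08 without naive replicate 2) and Gria1, an AMPA receptor subunit, by -0.11 (-0.33 to 0.12). With 1 array left out, Grin1 ran from -0.05 to 0.04 and Gria1 from -0.17 to -0.05, and Homer1 from -0.04 to 0.01.

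Of 39 tested genes of synaptic vesicles and release, 5 were higher and 2 lower at an unadjusted p under 0.05, with a median of 0.04. Synj1, a lipid phosphatase of vesicle recycling, had 9.98, 10.14, 9.85 and 9.92 in trained and 9.70, 9.77, 9.75 and 9.53 in naive arrays (0.28 ± 0.09, adjusted p = 0.439). Syt3, a calcium sensor, was separate as well (0.38 ± 0.13, adjusted p = 0.439), and Rims1, an organiser of the active zone, was lower by -0.28 ± 0.11 (adjusted p = 0.507). In the inhibitory synapse, 0 of 16 tested genes were higher and 2 lower. These were Abat, which degrades GABA (-0.28 ± 0.12), and Gabrg1, a GABA-A receptor subunit (-0.32 ± 0.14), both with overlapping groups. Gabrg1 differed by -0.20 without trained replicate 1.

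Among ion channels, 3 of 32 potassium channel genes were higher and 2 lower at an unadjusted p under 0.05. Of 24 calcium, sodium and HCN channel genes 1 was higher, and this was Cacng2, already counted with the glutamate receptor genes. Kcna1, a delayed rectifier of axons, had 8.70, 8.50, 8.73 and 8.68 against 8.37, 7.99, 8.42 and 8.42 (0.35 ± 0.15, adjusted p = 0.513). Its trained values all lay above the naive ones. Kcnip4, a calcium-binding partner of A-type channels, was lower without overlap (-0.27 ± 0.11, adjusted p = 0.507). Neurotrophin and growth factor signalling had 3 of 29 higher and 1 lower. Akt2, a kinase downstream of growth factor receptors, had 7.29, 6.96, 7.13 and 7.11 against 6.78, 6.81, 6.85 and 6.88 (0.29 ± 0.09, adjusted p = 0.385), and its 2 other, dimmer probe sets differed by 0.10 and 0.19. Pik3ca, the lipid kinase that activates Akt, was lower by -0.36 ± 0.13 (adjusted p = 0.465), or -0.22 without trained replicate 2. A second, dimmer Pik3ca probe set differed the other way, by 0.17.

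Genes of axon growth and neuronal RNA binding had 2 of 41 higher and 1 lower at an unadjusted p under 0.05, and a median of 0.01. Gap43, the growth-cone phosphoprotein, had 9.72, 9.81, 9.71 and 9.68 in trained and 9.79, 9.96, 9.79 and 9.76 in naive arrays, a difference of -0.09 (-0.29 to 0.10). Elavl4, the neuronal RNA-binding protein HuD that stabilises the Gap43 transcript, had 7.98, 7.99, 7.73 and 7.89 against 7.92, 8.01, 8.10 and 8.03 (-0.12, interval -0.32 to 0.09). Values of both genes overlapped between the groups. With 1 array left out, Gap43 ran from -0.12 to -0.05 and Elavl4 from -0.15 to -0.06. Rtn4r, the Nogo receptor that limits axon growth, had 7.13, 7.09, 7.17 and 7.03 against 6.91, 6.73, 6.66 and 6.61 and was separate (0.38 ± 0.13, adjusted p = 0.439), while its 2 other, dimmer probe sets differed by 0.02 and 0.18.

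Among oxidative phosphorylation and ribosomal protein genes, the few members with an unadjusted p under 0.05 were all higher in trained arrays. Over all tested probe sets, 3.83% were higher and 4.76% lower at that level. Of 73 tested subunits of oxidative phosphorylation, 5 were higher and 0 lower at an unadjusted p under 0.05, with a median of 0.04, or 0.00 after quantile normalisation. Ndufb11, an accessory subunit of complex I, read 9.98, 9.98, 9.94 and 10.01 in trained and 9.66, 9.75, 9.80 and 9.65 in naive arrays. The difference of 0.26 ± 0.07 (adjusted p = 0.258) came with trained arrays that lay close together, all above the naive ones. Cytosolic ribosomal protein genes had 4 of 40 higher and 0 lower, and a median of 0.06 (0.01 under quantile normalisation). Rps28 averaged 10.34 ± 0.04 (SD, n = 4) in trained and 10.12 ± 0.13 in naive arrays, without overlap (0.22 ± 0.08, adjusted p = 0.471). Eef1a1, the elongation factor that delivers tRNAs, had 11.81, 12.01, 11.88 and 11.94 against 11.59, 11.72, 11.54 and 11.33, and differed by 0.36 ± 0.09 (adjusted p = 0.225). A second Eef1a1 probe set, also bright, differed by -0.03 (adjusted p = 0.965), so the 2 disagreed. Over all 52 translation factors, 2 were higher and 2 lower.

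Protein turnover and stress genes showed both directions. Counts in this paragraph and the next are at an unadjusted p under 0.05, and no member was called. At that level 3.83% of all tested probe sets were higher and 4.76% lower. The proteasome list had 2 of 38 higher and 4 lower, with Psma3, a core subunit, lower by -0.29 ± 0.11 (adjusted p = 0.486). Chaperones had 0 of 30 higher and 2 lower, Dnajb9 (-0.29 ± 0.11) and Hspa4 (-0.28 ± 0.12). Genes of the glucocorticoid and stress response had 2 of 17 higher and 2 lower. Nfkbia, the inhibitor of NF-kappa B and a glucocorticoid target, had 6.54, 6.29, 6.39 and 6.16 against 5.98, 6.20, 5.58 and 5.69 (0.48 ± 0.15, adjusted p = 0.421), with naive replicate 2 inside the trained range. Genes of ethanol metabolism and antioxidant defence had 1 of 36 higher and 2 lower. The higher one, Aldh2, the mitochondrial enzyme that clears acetaldehyde, had 7.59, 8.12, 7.97 and 8.13 against 7.32, 7.96, 7.59 and 7.47 (0.37 ± 0.16, adjusted p = 0.521).

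Cholesterol synthesis had 0 of 20 higher and 2 lower at an unadjusted p under 0.05, while 8 of the 20 lay above 0. The 2 were Sc5d (-0.26 ± 0.09, adjusted p = 0.471) and Msmo1 (-0.15 ± 0.07, adjusted p = 0.581), both enzymes of the late pathway. Chromatin genes had 1 of 26 higher, Hdac4 (0.38 ± 0.16, adjusted p = 0.522), and 1 lower. The lower one, Hdac11, the sole class IV histone deacetylase, had 7.81, 8.07, 7.72 and 7.70 against 8.15, 8.33, 8.05 and 8.34 (-0.39 ± 0.10, adjusted p = 0.264), with trained replicate 2 just inside the naive range. Neuropeptide genes had 1 of 19 higher and 2 lower, Pnoc, which encodes nociceptin (-0.42 ± 0.15), and Adcyap1, which encodes PACAP (-0.29 ± 0.11).

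Across all 36 lists, 799 different genes were tested, of which 45 were higher and 36 lower at an unadjusted p under 0.05 and 0 were called. Over all probe sets tested, the same shares were 3.83% and 4.76%. No list had a median beyond 0.13 in size except those of the choroid plexus and blood, described next.

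**Figure D4:**
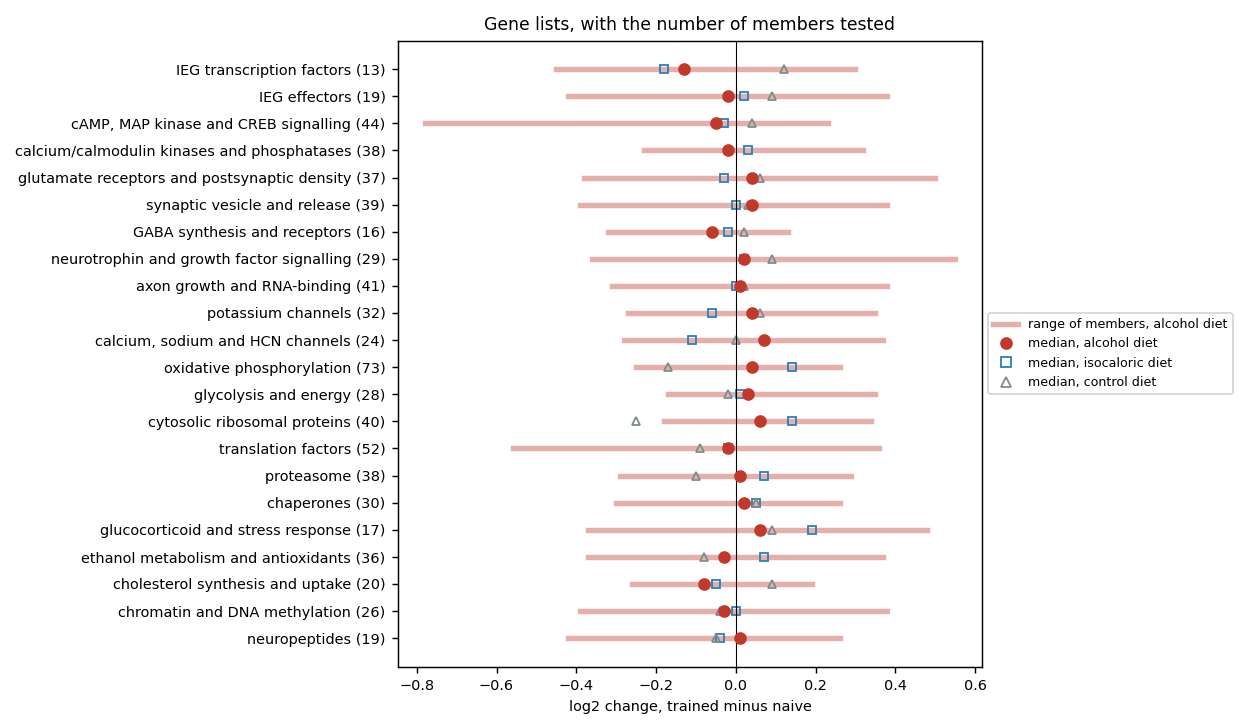
Log2 change between trained and naive arrays for 22 functional gene lists, with the number of tested members in brackets. Pale bars span the lowest to highest member in the alcohol diet, filled circles mark the alcohol-diet median, and open squares and triangles the medians in the isocaloric and control diets. Alcohol-diet medians lie between -0.13 and 0.07.

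Cell composition and RNA integrity were compared in the same 8 arrays with exact permutation tests (two-sided, 4 against 4, smallest possible p 0.0286). None of 19 measures reached that p. Neuron markers, summed over the list, averaged 14.12 ± 0.06 (SD) in trained and 14.01 ± 0.12 in naive arrays (exact p = 0.2). At an unadjusted limma p under 0.05, 4 of 13 were higher and 0 lower, where 3.83% and 4.76% of all tested probe sets were. The higher ones included Tubb3 (0.29 ± 0.11) and Nefl (0.20 ± 0.08). None was called, and the smallest adjusted p of the list was 0.501 (limma). Nefl differed by 0.12 without naive replicate 2, and by -0.06 in its second, equally bright probe set. The summed CA1 pyramidal markers were 11.04 ± 0.06 and 11.13 ± 0.03 (exact p = 0.0857). Of the 6 tested members, 1 lay above 0 and 5 below. Fibcd1 was higher by 0.33 ± 0.12 (adjusted p = 0.459). Dcn, also on the meningeal list, was lower by -0.45 ± 0.17 (adjusted p = 0.505), or -0.29 without trained replicate 1. In whole tissue, fewer cells of a type and less RNA per cell cannot be told apart. Astrocyte markers (20 tested) had no member with an unadjusted p under 0.05 in either direction. Oligodendrocyte markers had 1 of 16 lower, Ugt8, an enzyme of myelin lipids (-0.48 ± 0.16, no overlap).

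Choroid plexus markers, of which 10 were tested, had a median of 0.28 and summed levels of 10.35 to 13.67 in trained and 10.13 to 13.27 in naive arrays, with 1 array of each group far above the others. The median was -0.29 without trained replicate 4, 0.77 without naive replicate 2, 0.05 without all arrays high in Ttr and -0.52 with the Gapdh ratio in the fit, so it has no settled direction. Hbb, beta-globin and the only blood marker tested, was higher by 0.32 ± 0.15 (adjusted p = 0.586). It differed by 0.19 without trained replicate 4, 0.20 without naive replicate 2 and 0.06 without the arrays high in Ttr. The log2 ratio of 3' to 5' signal, which grows as RNA degrades, averaged 0.31 in trained and 0.20 in naive arrays for Gapdh (exact p = 0.229), 0.48 and 0.32 for actin (exact p = 0.2) and 1.11 and 0.87 for hexokinase (exact p = 0.171). All 3 ratios were thus somewhat higher in the trained arrays. Their part in the gene differences was not tested beyond adding each to the fit, which gave 1, 0 and 2 called probe sets in that order.

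The same training comparison was set beside that in the other diets. The alcohol and isocaloric comparisons share no arrays, and the isocaloric one, with 4 trained and 2 naive arrays, also gave 0 called probe sets and 678 with an unadjusted p under 0.05. Of the 818 alcohol-diet probe sets, 580 (70.9%) had the same sign in the isocaloric diet, against 57.6% of all tested. Across the 9520 probe sets the 2 sets of changes correlated at 0.234, a description with no test, since genes are not independent and all arrays share 1 fit. In the control diet, with 2 arrays a group, the same sign was seen in 284 of the 818 (34.7%), against 44.4% of all, and the correlation was -0.129.

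An unadjusted p under 0.05 in both alcohol and isocaloric diets was found for 107 probe sets, of which 95 had the same sign, 42 higher and 53 lower with training. Nras, described above, was among them. In the isocaloric diet it was 6.73, 7.12, 6.98 and 7.11 in trained and 8.20 and 8.22 in naive arrays (-1.23 ± 0.21, adjusted p = 0.066), next to -0.78 in the alcohol diet. In the control diet it was 7.87 and 7.34 in trained and 6.86 and 6.84 in naive arrays, a difference of 0.76 in the other direction (adjusted p = 0.256). Parg was lower by -0.37 (adjusted p = 0.507) and Stx12 by -0.45 (adjusted p = 0.275) in the isocaloric diet, and Nipsnap2 was higher by 0.35 (adjusted p = 0.507), close to their alcohol-diet values of -0.47, -0.40 and 0.41. Ndufb11 was higher by 0.25 (adjusted p = 0.58) and Ppp1r1a by 0.24 (adjusted p = 0.663). Both again had alcohol-diet values of similar size, 0.26 and 0.32. All of these genes were picked for a low p in both diets, so values of like size follow partly from that choice. The leading alcohol-diet genes outside the 107 had smaller differences in the isocaloric diet. Among them were Myh1 (0.16), Meis3 (0.15), Ctnnb1 (0.07), Purb (0.05) and Plpp3 (-0.03).

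Immediate early genes had no called member in the isocaloric diet. Egr1 differed by -0.28, Arc by -0.22, Junb by 0.17, Homer1 by 0.02 and Bdnf by 0.09 in the isocaloric diet, with adjusted p-values from 0.777 to 0.983. The difference of Klf10 was -0.37 (adjusted p = 0.69) and that of Klf6 -0.32 (adjusted p = 0.729) there. The median of the transcription factor list was -0.18 in the isocaloric and 0.12 in the control diet. Oxidative phosphorylation and ribosomal protein genes were each higher by a median of 0.14 in the isocaloric diet, against 0.04 and 0.06 in the alcohol diet, and lower by -0.17 and -0.25 in the control diet.

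**Figure D5:**
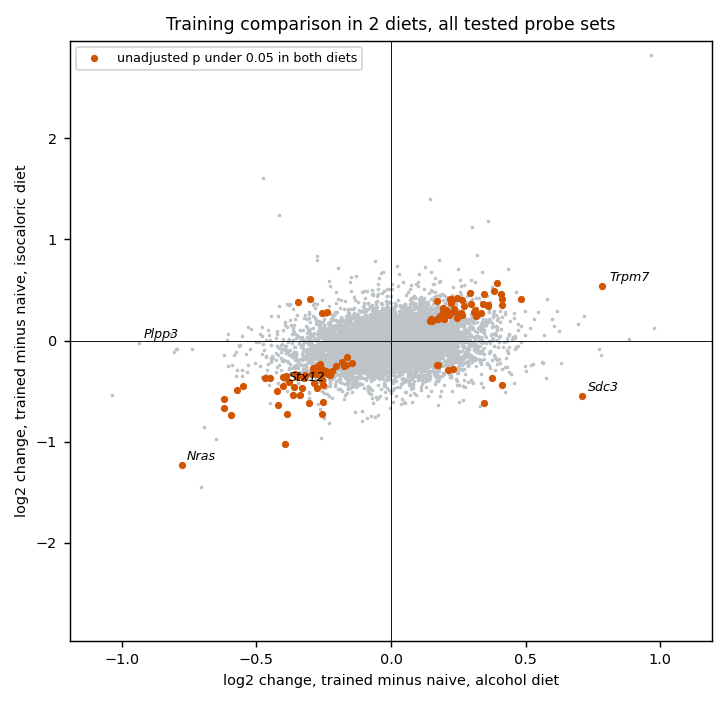
Each grey point is 1 of the 9520 tested probe sets, with its log2 change between trained and naive arrays in the alcohol diet on the x axis and in the isocaloric diet on the y axis. The 107 orange points had an unadjusted p under 0.05 in both diets; 95 lie in the 2 quadrants of shared sign, Nras at the lower left, while Sdc3 is higher in one diet and lower in the other.

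Whether training acted differently in the alcohol diet was tested as the difference between the 2 changes. Against the isocaloric diet 0 of 9520 probe sets were called (0%), with 401 at an unadjusted p under 0.05 and a smallest adjusted p of 0.326. The median 95% interval of this difference reached 0.39 to either side. Nothing in the training response can therefore be called particular to the alcohol diet from this comparison. Differences below that size were mostly not detectable, and larger ones, such as 1.26 for Sdc3, did not pass after adjustment either. The smallest p-values belonged to Fam131a, a gene of little-known function, at 0.68 (adjusted p = 0.326), and Scn3a, a sodium channel of developing neurons. Scn3a was 6.59, 6.82, 6.42 and 6.58 in trained and 7.07, 6.84, 6.55 and 7.05 in naive alcohol-diet arrays (-0.28), against 0.84 in the isocaloric diet (difference -1.12, adjusted p = 0.326).

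Sdc3 was also among the leading alcohol-diet genes. Its difference with training was 0.71 in the alcohol and -0.55 in the isocaloric diet, a difference of 1.26 (adjusted p = 0.326). Its second probe set was higher in both, by 0.31 and 0.22. Actn1, an actin crosslinker, had opposite signs too, with 0.35 and -0.62 (difference 0.96, adjusted p = 0.836), while its second probe set had 0.24 and 0.19. Maob, the monoamine oxidase of astrocytes, had 8.66, 8.61, 8.81 and 8.69 in trained and 8.92, 9.01, 9.04 and 8.93 in naive alcohol-diet arrays, lower without overlap (-0.28). In the isocaloric diet it was higher by 0.20 (difference -0.48, adjusted p = 1.0). The others with low p-values were Fnbp1 (0.86), Apod (0.53), Tsen15 (-2.09), Prpf8 (-0.71) and Mapt, which encodes tau (-0.85), and none passed. For Mapt, 2 other probe sets were positive in both diets. Tsen15 read 5.85 and 3.91 in the isocaloric naive arrays, so its value rests on them: it was -3.05 (adjusted p = 0.00713) without replicate 1 and -1.12 (adjusted p = 1.0) without replicate 2.

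Against the control diet 3 probe sets were called (0.0315%), 2 with a higher and 1 with a lower change in the alcohol diet. Abhd17a, a depalmitoylase of synaptic proteins, was higher by 0.18 with training in the alcohol diet and lower by -0.69 in the control diet (difference 0.87, adjusted p = 0.0351). Kctd17, a substrate adaptor of a ubiquitin ligase, had 0.29 and -0.49 (difference 0.78, adjusted p = 0.0471). Alkbh5, which removes N6-methyladenosine from RNA, had -0.36 and 0.61 (difference -0.97, adjusted p = 0.0351). Alkbh5 read 7.22, 7.24, 7.13 and 7.08 in trained and 7.43, 7.46, 7.62 and 7.62 in naive alcohol-diet arrays, and 7.85 and 7.66 against 7.28 and 7.02 in the control diet. Its second probe set differed by -0.11 in the alcohol diet. In all 3 genes the larger share of the difference lay in the control diet, which has 2 arrays a group. The count was not stable to the removal of single arrays: it was 496 without control naive replicate 1, 87 without control naive replicate 2, and 0 without alcohol trained replicate 1 or 3 or any one alcohol naive array. It was 9 without alcohol trained replicate 4, 5 without alcohol trained replicate 2, and 1 without either control trained array.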

How the data were processed

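RNA of rat hippocampus was measured on 18 Affymetrix arrays. The authors deposited 1 linear intensity per probe set and array, scaled to a common trimmed mean of 150; per the submitters' processing notes MAS5 was used for 2 control-diet samples, and for the other 16 no algorithm is named in the sources used here. Values of those 2 arrays, control naive replicate 1 and control trained replicate 2, were written with fewer digits than the rest. Common scaling can hide a change in total RNA. No column was left unmapped, and no 2 arrays were identical.

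Intensities were analysed as log2(intensity + 6.06), where 6.06 is the 10th percentile over every deposited value, so folds of dim probe sets are understated. From 15923 probe sets, 57 controls and the 6346 below the 40th percentile of mean level were left out, which leaves 9520. With limma 3.58.1 (R 4.3.3), a model was fitted of 6 group means on all 18 arrays, sharing one spread (lmFit, eBayes with trend; two-sided, Benjamini-Hochberg within a comparison, threshold 0.05). The code was tested on simulated data. Summed markers and 3' to 5' ratios used exact permutation tests, with scipy 1.17.1. Python 3.11.15, pandas 2.3.3, numpy 2.4.6 and matplotlib 3.10.9 were used.

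Symbols came from the platform annotation: 12789 probe sets had 1 symbol, of which 12754 matched RefSeq gene identifiers, 312 had several and 2822, controls included, none. Probe sets with several or no symbols are not named. Named genes were the 10 with the smallest p in each direction, the 10 largest of each direction without overlap, up to 5 of each sign for each difference between diets, a list of learning genes, and the 3 members with the smallest p in each of 36 gene lists; of these the text prints those its comparisons use. Ranked genes are given by the probe set with the smallest p, list members by the brightest. The members and lists were chosen with earlier results of these data known. Alternatives covered the constant, filter, normalisation, samples fitted, array weights, trend, replicate block, 3' to 5' ratios as covariates, arrays high in Ttr, arrays with fewer digits and each replicate.

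The labels do not say whether replicate numbers pair the samples, and the main fit treated the samples as unpaired. Deviations from the group means of same-numbered trained and naive arrays correlated at -0.001, -0.083, 0.122 and -0.045. Arrays with different numbers correlated at -0.106 to 0.106. These values cannot decide whether the numbers pair the samples. Groups of 2 to 4 arrays limit the precision.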

Additional observations from a re-analysis of the deposited data

Results flagged for a closer look

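In 98 groups of 4 arrays (the leading probe sets, marker sums and quality measures of both alcohol groups), 5 had 1 array far from the other 3 by Dixon's criterion of 0.829; chance alone gives about 1 in 20 groups. Among trained arrays, Myh1 was highest in replicate 2 at 9.83, Nras highest in replicate 4 at 7.54, and the summed endothelial and mural markers lowest in replicate 1 at 10.82. Among naive arrays, Bag6 was lowest in replicate 2 at 5.61 and the summed choroid plexus and ependyma markers highest in replicate 2 at 13.27.

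The change with training differed between the alcohol and control diets for Abhd17a (0.87, adjusted p = 0.0351), Kctd17 (0.78, adjusted p = 0.0471) and Alkbh5 (-0.97, adjusted p = 0.0351), by limma's test of the difference. Each control group held 2 arrays, 1 of which was written with fewer digits, so diet and this property of the values are partly tied together; the part of the latter was not tested beyond leaving those arrays out. Over the 28 alternatives the direction was kept by all 3 genes. They were picked for passing this same contrast, so a kept direction is no further evidence. The adjusted p stayed under 0.05 in 13 alternatives for Abhd17a, 9 for Kctd17 and 11 for Alkbh5, and some of these fits leave 1 control array in a group.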

How the results depend on the processing

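The count of called probe sets for training in the alcohol diet, 0, remained 0 in 18 of 24 alternatives. It was 1 with only the groups compared, with array weights and with the Gapdh ratio, 2 with the hexokinase ratio (added after the data were seen), and 0 to 1 when single replicates were left out. Myh1 was the call with only the groups compared and with array weights, Asrgl1 with the Gapdh ratio and, beside a probe set without a symbol, with the hexokinase ratio, and Nras without alcohol trained replicate 4. The replicate block gave 0 called probe sets, and 1 (Myh1, adjusted p = 0.0146) when fitted with only the groups compared. Whether the replicate numbers pair the samples is not given in the labels. Unadjusted p-values under 0.05 ranged from 577 to 1063 over the fits of the same 9520 probe sets, 577 with the Gapdh ratio and 1063 with array weights.

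The difference from the isocaloric diet gave 0 in 28 of 30 alternatives, 1 with array weights (Fam131a), and 0 to 1 with a replicate left out, the 1 being Tsen15 without isocaloric naive replicate 1. The difference from the control diet, 3, was 13 with the filter at the 60th percentile, 0 with only the groups compared, array weights, no trend and either replicate block, 1 with the actin ratio or without the arrays high in Ttr, 210 without the 2 arrays written with fewer digits, and 0 to 496 with a replicate left out; fits that leave 1 control array in a group take its spread from other groups. Training in the isocaloric diet, 0, gave 1 with no filter or without the arrays with fewer digits, 2 with the stricter filter, quantile normalisation, only the groups compared or the replicate block, 46 with array weights, 23 with the block and only the groups compared, and 0 to 1 with a replicate left out. Causes of these shifts were not tested.

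Of 46 genes followed in the alcohol comparison, 38 kept their sign in every alternative run. Most of the 46 were picked for a small p or for lack of overlap in these same arrays, which favours a kept sign. The other 8 were Junb, Egr1, Homer1, Bdnf, Dusp1, Creb1, Camk2a and Grin1, all from the list of learning genes. None of these 8 was called, and they lay between -0.40 and 0.26 throughout. Of 36 list medians, 26 changed sign in at least 1 alternative. Choroid plexus markers ran from -0.52 to 0.77, meningeal markers from -0.14 to 0.55 and the blood marker from 0.06 to 0.42; the other 33 medians stayed between -0.19 and 0.15. Neuropeptides changed sign under quantile normalisation (0.01 to -0.02). The median 95% interval reached 0.25 to either side before adjustment, so many differences smaller than that were not detectable. None of the 64 differences beyond 0.5 passed after adjustment in the main fit.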
